A study of Mus musculus with 4 samples.

Results

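The genes described are 45 mouse genes of pre-mRNA splicing, taken by name from the 21631 protein-coding genes of the autosomes and the X chromosome. They comprise 22 genes of heterogeneous nuclear ribonucleoproteins (hnRNPs) and their relatives, 12 genes of serine- and arginine-rich (SR) proteins with the related Tra2 proteins, and 11 genes of the core splicing machinery. The series holds 2 samples of Deaf1 ChIP, made with an antibody to Deaf1, and 2 samples of input chromatin, all from C2C12, a mouse myoblast line that can form myotubes in culture. Myocyte is the word in the sample labels, whereas the series' description speaks of differentiated myoblasts, and the stage is not settled. No genetic change, drug or time course is labelled. The chromatin was crosslinked with formaldehyde and cut with an enzyme kit. Only the peak lists of the 2 ChIP samples were analysed, so no comparison with input or IgG was made and signal common to promoters cannot be told apart from Deaf1 binding. Whether the replicates were grown as separate cultures is not labelled, and the spread between them may be technical only.

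Splicing removes introns in the spliceosome, which is built from small nuclear ribonucleoproteins (snRNPs) on each intron. HnRNPs coat the nascent transcript and often block splice sites, SR proteins bind exons and recruit the machinery, and the core proteins recognise the splice sites and carry out the reaction. In muscle many transcripts change their splicing as myoblasts mature, and polypyrimidine tract-binding protein is known as a repressor of muscle exons. Deaf1 is a transcription factor with a SAND domain, known to bind DNA with TTCG motifs.

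A gene was called occupied when, in both peak lists, a summit lay no more than 1 kb from 1 and the same end of its RefSeq span. By this rule 37 of the 45 splicing genes were occupied, against 51.6% of all protein-coding genes. They were 16 of 22 hnRNP genes, 10 of 12 SR genes and 11 of 11 core genes. The replicate 1 list held 65606 peaks with a median fold of 6.07 and the replicate 2 list 26503 with a median fold of 8.34, where fold is the authors' ratio of signal at the summit to the caller's background. The deposited values fit a ratio with 1 fragment added to both the pileup and the background, which lowers folds most where the background is low. At the occupied splicing genes the median fold was 21.7 in replicate 1 and 20.1 in replicate 2, against 16.4 and 15.2 at all occupied protein-coding genes. This order depended on the window: within 500 bp the medians were 13.8 and 14.8 at 27 splicing genes, against 16.2 and 14.8 at all protein-coding genes so occupied. It also differed by class. Within 1 kb the medians were 23.1 and 24.1 at hnRNP genes and 22.2 and 19.8 at SR genes. At core genes they were 14.3 and 13.4, below those of all occupied protein-coding genes. Both folds exceeded 20 at 18 of the 37 genes, against 22% of all occupied protein-coding genes. The high folds were unevenly spread, at 12 of 16 hnRNP genes, 4 of 10 SR genes and 2 of 11 core genes. No test of these shares was made, since genes are not replicates and neighbours can share a peak.

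**Figure D1:**
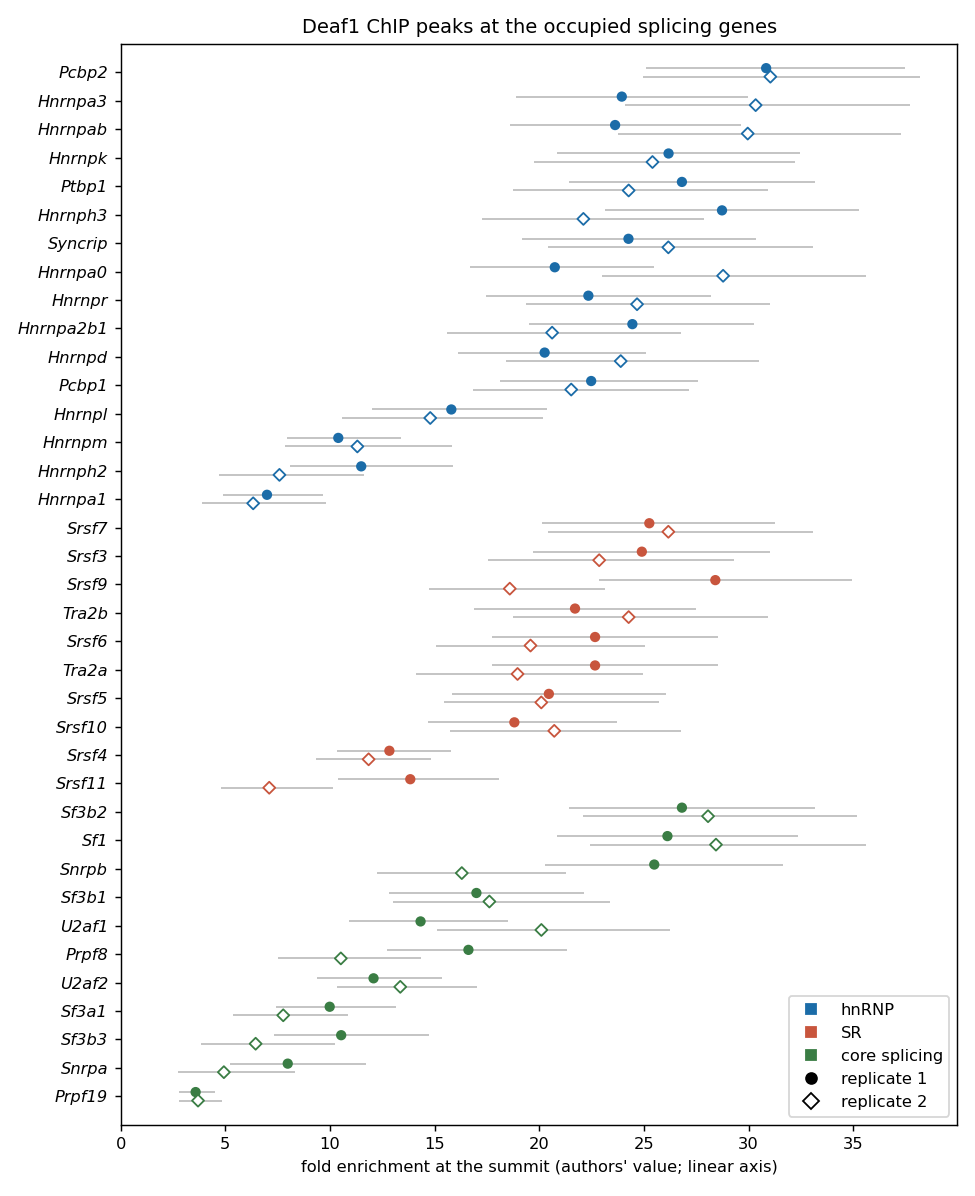
Fold enrichment at the summit for each of the 37 occupied splicing genes, on a linear axis, with filled circles for replicate 1 and open diamonds for replicate 2. Grey bars are 95% counting intervals, and within each class genes run down from the highest to the lowest product of the folds, from Pcbp2 at 30.8 and 31.0 among hnRNP genes to Prpf19 at 3.58 and 3.70 among core genes.

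Promoter sequence is shown for 5 genes with a RefSeq start (build GRCm38.p6) where the highest summits near that start both fell in the window from 250 bases before to 50 after it, together with Pcbp2, which had the highest folds, and Hnrnpc, which had a peak in 1 replicate only. The sequences run 5′ to 3′ on the strand of the gene, and capitals mark TTCG or its reverse complement CGAA. The windows are chr13:58128507-58128806 (minus strand) for Hnrnpa0, chr6:117917044-117917343 (plus) for an inner start of Hnrnpf, chr17:29032410-29032709 (plus) for Srsf3, chr4:131873387-131873686 (plus) for Srsf4, chr11:4160104-4160403 (plus) for Sf3a1, chr15:102470382-102470681 (plus) for Pcbp2 and chr14:52103972-52104271 (minus) for Hnrnpc.
Hnrnpa0: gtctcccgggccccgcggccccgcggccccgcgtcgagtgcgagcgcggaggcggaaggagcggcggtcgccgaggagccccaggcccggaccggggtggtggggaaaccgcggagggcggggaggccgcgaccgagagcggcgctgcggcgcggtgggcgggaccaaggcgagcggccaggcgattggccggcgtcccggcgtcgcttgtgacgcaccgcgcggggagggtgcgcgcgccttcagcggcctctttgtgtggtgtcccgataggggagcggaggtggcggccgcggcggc
Hnrnpf: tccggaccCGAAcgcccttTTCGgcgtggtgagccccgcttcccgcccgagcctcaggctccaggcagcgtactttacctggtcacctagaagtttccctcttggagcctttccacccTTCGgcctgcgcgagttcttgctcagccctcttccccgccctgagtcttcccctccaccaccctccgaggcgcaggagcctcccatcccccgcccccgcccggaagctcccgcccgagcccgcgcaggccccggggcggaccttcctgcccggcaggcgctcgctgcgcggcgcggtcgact
Srsf3: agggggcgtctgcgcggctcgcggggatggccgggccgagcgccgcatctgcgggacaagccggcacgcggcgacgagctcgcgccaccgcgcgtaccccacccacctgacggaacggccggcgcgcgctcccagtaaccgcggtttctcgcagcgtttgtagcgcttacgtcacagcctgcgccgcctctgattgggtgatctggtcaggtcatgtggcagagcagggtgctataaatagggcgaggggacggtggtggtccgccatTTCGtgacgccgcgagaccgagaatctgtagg
Srsf4: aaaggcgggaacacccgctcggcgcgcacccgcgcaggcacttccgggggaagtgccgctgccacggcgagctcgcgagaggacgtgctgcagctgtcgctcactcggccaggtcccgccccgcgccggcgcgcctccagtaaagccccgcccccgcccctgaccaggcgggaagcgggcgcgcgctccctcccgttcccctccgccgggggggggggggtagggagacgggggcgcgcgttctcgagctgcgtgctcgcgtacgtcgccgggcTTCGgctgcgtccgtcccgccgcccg
Sf3a1: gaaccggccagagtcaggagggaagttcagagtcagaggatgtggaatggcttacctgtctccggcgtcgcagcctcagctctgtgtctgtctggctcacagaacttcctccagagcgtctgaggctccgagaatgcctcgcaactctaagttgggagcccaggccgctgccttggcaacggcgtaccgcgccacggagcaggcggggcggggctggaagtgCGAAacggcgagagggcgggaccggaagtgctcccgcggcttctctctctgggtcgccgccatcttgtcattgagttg
Pcbp2: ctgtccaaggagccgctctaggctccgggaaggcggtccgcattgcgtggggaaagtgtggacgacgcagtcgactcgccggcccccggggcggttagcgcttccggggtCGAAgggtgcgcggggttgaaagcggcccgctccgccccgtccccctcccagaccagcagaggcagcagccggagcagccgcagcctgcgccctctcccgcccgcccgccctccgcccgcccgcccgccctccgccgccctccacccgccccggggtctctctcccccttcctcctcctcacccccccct
Hnrnpc: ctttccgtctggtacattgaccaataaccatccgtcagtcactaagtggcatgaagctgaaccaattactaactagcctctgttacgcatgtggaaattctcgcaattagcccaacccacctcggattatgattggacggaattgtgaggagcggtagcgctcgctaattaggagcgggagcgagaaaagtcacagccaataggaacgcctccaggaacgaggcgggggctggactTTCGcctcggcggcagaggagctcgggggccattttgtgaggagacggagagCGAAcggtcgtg
The Hnrnpa0 window held 52 CpG dinucleotides and no TTCG on either strand, although its folds were 20.7 and 28.8 with summits 225 and 214 bp before the start. The Hnrnpf window held 3 TTCG motifs and the weaker peaks of that gene, with folds of 7.67 and 9.70 and summits 9 and 14 bp before the start. The Hnrnpc window held 2, beside a peak of replicate 1 alone.

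Over all 60 windows of the 43 splicing genes found in the promoter table, 42 (70.0%) held TTCG on either strand. The share was 49.4% of the 21045 windows of all protein-coding genes, and 59.6% of the windows of genes with summits of both replicates within 1 kb of a start. The longer motif TTCGG, searched on both strands and containing TTCG, stood in 16 member windows (26.7%), against 22.2% of windows of all protein-coding genes and 28.2% of those of genes with summits at a start. At least 2 TTCG motifs beginning within 20 bases of each other stood in 4 member windows (6.67%), those of Hnrnpa3, Hnrnpf, Hnrnpk and Hnrnpm. The share was 5.82% of windows of all protein-coding genes and 7.37% of those of genes with summits at a start. Overlapping matches counted, and the Hnrnpm pair is the run TTCGAA, in which TTCG stands on both strands. Member windows also had more CpG, with a median of 27.5 against 13 in all windows and 22 in windows of genes with summits at a start. The part of CpG in the share of TTCG was not tested. Windows of 1 gene can overlap, and a match is only a run of letters.

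Among the hnRNP genes the highest folds stood at Pcbp2, which encodes a protein that binds poly(C) stretches. Its summit pileup, the number of fragments over the summit, was 99 in replicate 1 and 87 in replicate 2. This gave folds of 30.8 (95% counting interval 25.1 to 37.5) and 31.0 (24.9 to 38.2). Of the peaks of each list, 99.9% and 98.7% had folds no higher than these. The summits stood at positions 102471084 and 102471068 of chromosome 15 (mm10), 452 and 436 bp downstream of the nearest start, and a lncRNA gene, Gm36331, also ended within 1 kb. Pcbp1, its intronless relative, had folds of 22.5 and 21.5, but these came from summits 554 bp apart: 444 bp before the start in replicate 1 and 110 bp after it in replicate 2. Replicate 2 also had a peak 453 bp before the Pcbp1 start, with a fold of 15.3 over a background of 4.87 fragments. In replicate 1 a single peak spanned both places. By pileup the upstream summit was the highest in both replicates, with 90 fragments in replicate 1 and 89 in replicate 2, where the downstream summit had 69.

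The A/B group of hnRNPs, abundant RNA-binding proteins of the nucleus, divided into strong and weak peaks. Hnrnpa3 had folds of 23.9 and 30.3 and Hnrnpab 23.6 and 29.96. Hnrnpa2b1 had 24.5 and 20.6, and Hnrnpa0, an intronless gene, 20.7 and 28.8. Hnrnpd, whose product AUF1 binds AU-rich RNA, had 20.3 and 23.9. Hnrnpa1 stood well below these, with 34 and 18 fragments at the summit and folds of 6.99 (interval 4.90 to 9.69) and 6.33 (3.89 to 9.81). Its intervals did not overlap those of the 5 genes just named. The Hnrnpa1 summits lay 674 and 700 bp before its own start and 129 and 155 bp after the start of Cbx5, the neighbour on the other strand, which encodes the heterochromatin protein HP1 alpha.

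The H/F group, which binds runs of G, gave a like range. Hnrnph3 had folds of 28.7 and 22.1 and Hnrnph2, on the X chromosome, 11.5 and 7.59. Neither Hnrnph1 nor Hnrnpf was occupied at a span end, but both had peaks at inner starts, described below. The remaining occupied hnRNP genes were mostly high. Hnrnpk, whose product binds poly(C), had 26.2 and 25.4, and Syncrip (hnRNP Q) 24.3 and 26.2. Syncrip also had peaks 459 and 510 bp before its start, with folds of 12.5 and 24.3. Their pileups were 78 and 76, against 75 and 68 at the peaks chosen. Hnrnpr, a relative of Syncrip, had 22.3 and 24.7 with both summits 149 bp after the start. Hnrnpl, which binds CA repeats, had 15.8 and 14.8 at its span end and 17.6 and 11.1 at its start in the promoter table, further inside the span. Hnrnpm had 10.4 and 11.3 at its start. A further pair of Hnrnpm peaks lay deep in the gene, 3613 and 3619 bp inside its lower end, with folds of 17.6 and 11.8.

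The polypyrimidine tract-binding paralogs differed. Ptbp1 had 83 and 63 fragments over backgrounds of 2.13 and 1.64, the lowest of each list, and folds of 26.8 and 24.3 at 666 and 703 bp after its start. At Ptbp2, the paralog best known from neurons, the pileups were 72 and 79, close to those of Ptbp1. The backgrounds there were 23.0 and 26.0 fragments, so the folds were 3.05 and 2.96. Its peaks lay over 1 kb from the span end and the gene was not occupied. Fold separated the paralogs and pileup did not. Prpf19 was the other splicing gene of this kind, with 70 and 52 fragments, backgrounds of 18.8 and 13.3 and folds of 3.58 and 3.70. Only 3.71% and 1.85% of the peaks of each list had folds no higher than these. The source of the raised backgrounds was not tested.

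The occupied SR genes had folds at their span ends between 12.8 and 28.4 in replicate 1 and between 7.10 and 26.2 in replicate 2. Srsf7, whose product shuttles between nucleus and cytoplasm, had 25.3 and 26.2, and Srsf3, the smallest SR protein, 24.9 and 22.9. Srsf9 had 28.4 (interval 22.9 to 34.9) and 18.6 (14.7 to 23.1). Tra2b, which activates exons through GAA repeats, had 21.7 and 24.3, and its paralog Tra2a 22.7 and 18.96. Srsf6 had 22.7 and 19.6, Srsf5 had 20.5 and 20.1, and Srsf10, known as a repressor when dephosphorylated, had 18.8 and 20.7. These 8 genes thus spanned a narrow range, and in each replicate their counting intervals all overlapped.

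The weaker occupied SR genes were Srsf4 and Srsf11. Srsf4 had 89 and 75 fragments, as many as the strongest SR genes, over backgrounds of 6.01 and 5.42, and folds of 12.8 and 11.8. Srsf11 had 13.8 (interval 10.4 to 18.1) and 7.10 (4.80 to 10.1) at its span end, and was the only 1 of the 37 occupied genes whose replicate intervals did not overlap at the chosen peak. At a second start further inside the gene, with summits 115 and 99 bp after it, Srsf11 had higher folds of 21.2 and 16.2.

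All 11 core genes were occupied, with folds from 3.58 to 26.8 in replicate 1 and from 3.70 to 28.4 in replicate 2. For recognition of the branch point and the 3′ splice site, Sf1 had folds of 26.1 and 28.4 and U2af1 14.3 and 20.1. U2af2 had 12.1 and 13.4, from summits outside its span near the start of Epn1. At the other end of its span only replicate 1 had a summit within 1 kb, so the call rests on the Epn1 side alone. For the SF3 complexes of the U2 snRNP, Sf3b1 had 17.0 and 17.6, Sf3a1 9.99 and 7.77 and Sf3b3 10.5 and 6.45. Sf3b2 had 26.8 and 28.1, but at its finish and not its start. Snrpb, the gene of the Sm ring protein SmB, had 25.5 and 16.3. Prpf8, the largest protein of the U5 snRNP, had 16.6 and 10.5, also at its finish. Snrpa, the gene of a U1 snRNP protein, was the weakest core gene over a low background, with 24 and 12 fragments and folds of 7.98 (interval 5.23 to 11.7) and 4.93 (2.73 to 8.33). Prpf19, of the complex that activates the spliceosome, has been given above. At their own starts, Sf3b2 had 12.8 and 8.18 and Prpf8 10.2 and 5.88, and both folds at the start exceeded 20 at 1 of 9 core genes, 12 of 21 hnRNP genes and 6 of 12 SR genes.

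**Figure D2:**
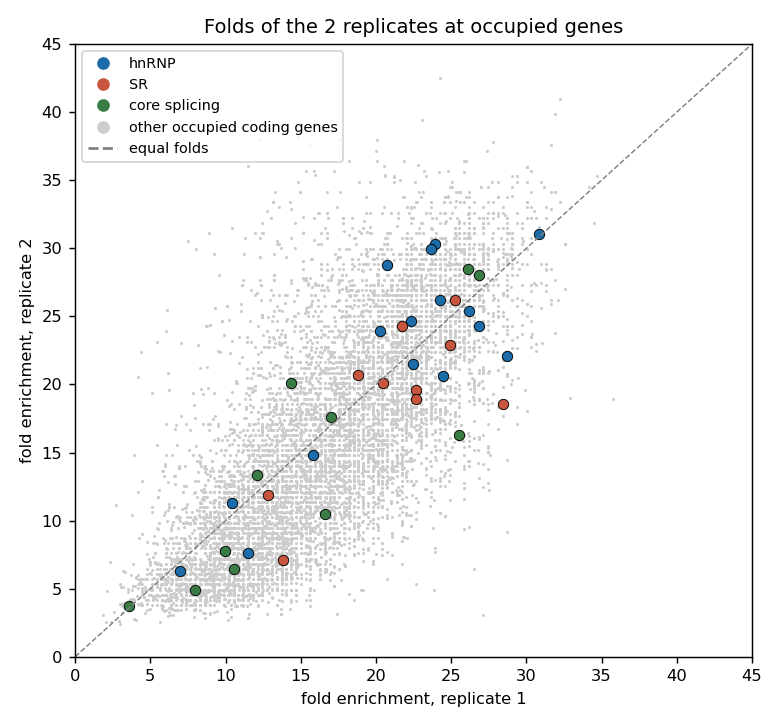
Fold enrichment in replicate 1 (horizontal, linear) and replicate 2 (vertical, linear) at the 37 occupied splicing genes, coloured by class, over all other occupied protein-coding genes in grey. The splicing genes follow the grey cloud along the dashed line of equal folds, with most hnRNP genes at its upper right and core genes along its whole length.

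Across the 37 occupied splicing genes the folds of the replicates correlated with a Pearson r of 0.860 and a Spearman rho of 0.766, as a description of genes that share 2 libraries. The values were 0.763 and 0.778 over all 11164 occupied protein-coding genes. The fold was higher in replicate 1 at 20 genes and in replicate 2 at 17. The peaks of the replicates overlapped at all 37, and their highest summits lay within 100 bp at 31 (83.8%, against 79.0% of all occupied protein-coding genes). The median peak widths were 1001 and 708 bp, against 705 and 506.5 bp at all occupied protein-coding genes. Wide peaks were a feature of hnRNP genes (medians of 1096.5 and 896.5 bp) and SR genes (1077 and 857.5 bp). Core genes, at 652 and 552 bp, were near the level of all occupied genes. The widest stood at Hnrnpa0, at 2213 and 2188 bp. Backgrounds at the lowest level of both lists, 2.13 and 1.64 fragments, lay behind 11 of the 37, against 46.4% of all occupied protein-coding genes. At the other splicing genes the background was above that level in at least 1 replicate, at some only slightly. It was 2.18 and 1.64 fragments at Sf1, but 18.8 and 13.3 at Prpf19.

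The count of occupied splicing genes moved with the rule. Within 500 bp 27 of the 45 splicing genes were occupied (against 43.2% of all protein-coding genes), within 2 kb 43 (56.4%) and within 5 kb 43 (61.1%). With a fold of at least 5 in both lists 35 were occupied (48.8%), with a −log10 q of at least 5 37 (50.1%), and with lists cut to equal length 37 (50.3%). Replicate 1 alone called 38 (61.8%) and replicate 2 alone 37 (52.3%).

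Of 35 occupied genes with an entry in the promoter table, 33 (94.3%) had their chosen peak at the end where transcription starts. The share was 93.6% over all occupied protein-coding genes with an entry. The other 2 splicing genes were Sf3b2 and Prpf8. Hnrnpl counts among the 33 by its span end, although its summits there lie 1947 and 1942 bp before its start in the table. All 35 had peaks of both replicates at the start end too. Ptbp1, Sf3b2 and Prpf8 were occupied at both ends, 3 of the 37 occupied splicing genes. Among the 11164 occupied protein-coding genes 893 were, or 4.13% of all protein-coding genes, occupied or not. U2af2 and Snrpb have no entry in the table.

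The 8 genes that were not occupied mostly carried strong peaks further inside. When the summits were measured from RefSeq starts instead of span ends, 42 of 43 splicing genes had summits of both replicates within 1 kb of the same start, against 54% of all protein-coding genes in the table. The 7 gained were Srsf1, Srsf2, Hnrnpu, Hnrnpul1, Hnrnph1, Hnrnpf and Ptbp2. Srsf1, the founding SR protein gene, had folds of 27.5 and 25.4 at summits 931 and 913 bp after its start, and Srsf2 24.6 and 27.5 at 510 and 532 bp. Hnrnpu, the gene of the scaffold attachment factor SAF-A, had 18.5 and 26.2 from wide peaks of 1720 and 1730 bp whose summits lay 21 bp before and 900 bp after the start. Hnrnpul1 had 15.4 and 16.3 at 147 and 149 bp after its start. Hnrnph1 had 19.1 and 9.77, with intervals of 14.9 to 24.1 and 7.61 to 12.4 that did not overlap. Its pileups were close, at 69 and 67, over backgrounds of 2.67 and 5.96 fragments, and its summits lay 398 bp apart. Hnrnpf had 13.7 and 17.9 at summits 650 bp apart, and both genes have several starts within the gene. These folds lie in the range of the occupied genes, so the span-end rule and not a lack of peaks set these 7 apart, apart from the low fold of Ptbp2.

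Hnrnpc was the exception. Replicate 1 had a peak 221 bp after its start with 31 fragments and a fold of 10.2, and replicate 2 had none within 5 kb of that end of the gene. At the edge of the window, the farthest chosen summits inside it were those of Prpf8, at 842 and 836 bp, and the nearest outside it among genes not occupied were those of Hnrnpu in replicate 1, at 1055 bp, and of Srsf2, at 1091 and 1113 bp. Occupied genes had further summits just outside, at 1011 bp from the finish end of Srsf4 in replicate 2 and near Hnrnpa2b1.

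**Figure D3:**
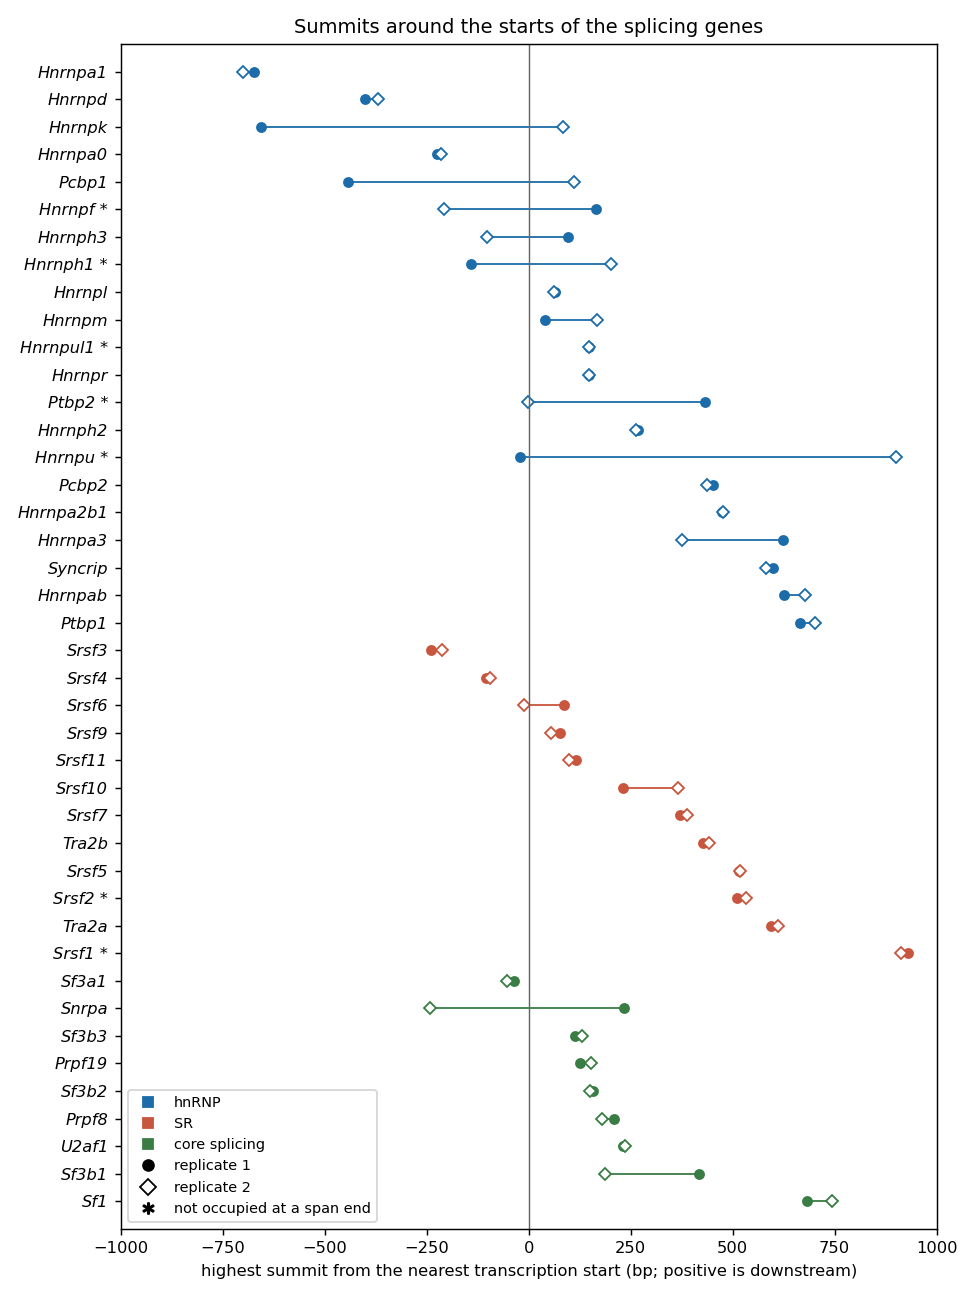
Distance of the highest summit (by fold) from the nearest RefSeq start, in bp with downstream positive, for the 42 splicing genes with summits at a start. Filled circles for replicate 1 and open diamonds for replicate 2 are joined by a line. Each summit is measured from its own nearest start, so joined points can refer to different starts. The Snrpa summits, drawn 234 bp after and 242 bp before a start, lie 35 bp apart. Asterisks mark the 7 genes not occupied at a span end, and many hnRNP and SR genes lie to the right, as far as 931 and 913 bp at Srsf1.

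Summits well downstream of the start were common. The highest summit of a gene is here that with the highest fold, and further peaks were not counted. In both replicates this summit lay over 250 bp downstream at 14 of the 42 genes. The share was 14.8% of all protein-coding genes with summits at a start. The 14 were 7 of 21 hnRNP genes, 6 of 12 SR genes and 1 of 9 core genes. Among them, Syncrip also had the upstream peaks given above. Pcbp2 also had peaks 44 and 31 bp before a start, with 64 and 52 fragments over backgrounds of 8.01 and 5.42. The highest summits lay within 100 bp of the start in both replicates at 4 of the 42 (9.52%), against 25.5% of all protein-coding genes. Srsf9, Hnrnpl, Sf3a1 and Srsf6 were those 4. The downstream genes were mainly the strong ones: among the 19 splicing genes with both folds over 20 at the start, 12 had both summits over 250 bp downstream, against 15.5% of all protein-coding genes of that strength. Of the 23 weaker splicing genes 2 did so, against 14.6% of their counterparts. Whether this difference exceeds what the choice of genes gives was not tested.

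**Figure D4:**
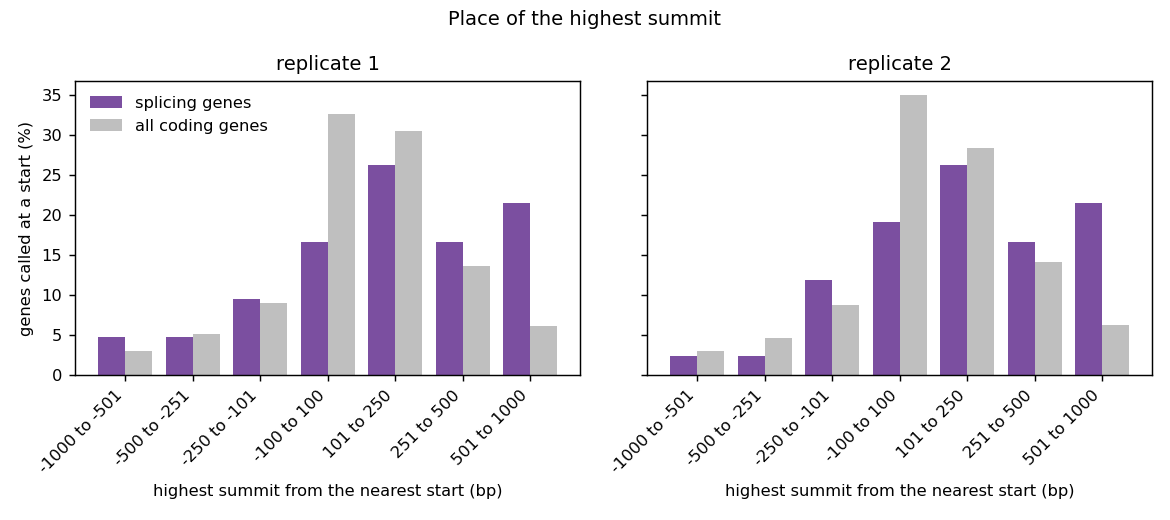
Share of genes (%) by the distance in bp of the highest summit from the nearest start, in replicate 1 and replicate 2, with the 42 splicing genes in purple beside all protein-coding genes with summits at a start in grey. The bin from 501 to 1000 bp downstream holds 21.4% of the splicing genes in both replicates, against 6.08% and 6.23% of all genes, and the bin around the start holds fewer splicing genes than all genes.

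Peaks of 15 occupied splicing genes (40.5%) were shared with a further protein-coding gene that had a span end within 1 kb of both summits, against 22.9% of all occupied protein-coding genes. The shared peaks stood at 7 hnRNP, 2 SR and 6 core genes. In 11 cases both genes have their start end at the peak and run in opposite directions. Among hnRNP genes the pairs were Hnrnpa1 with Cbx5, Hnrnpa2b1 with Cbx3 (which encodes HP1 gamma), Hnrnpd with 4930524J08Rik, Hnrnph2 with Gla, Hnrnph3 with Pbld2 and Hnrnpk with Rmi1. Among SR genes they were Srsf7 with Gemin6 and Srsf11 with Lrrc40, and among core genes Sf3a1 with Ccdc157, Sf3b3 with Cog4 and Snrpa with BC024978. Gemin6 reaches the peak by its span only, since its start in the table lies 17518 bp away. The other shared peaks were those of Hnrnpm with Marchf2, U2af2 with Epn1, Sf3b2 with Pacs1 and Prpf8 with Rilp. Srsf2, called at its start, shared its peak with the span end of Mfsd11.

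In 6 of these cases both summits were nearer to the start of the neighbour. At Sf3b2 the shared peak lay 118 and 112 bp before the start of Pacs1, 22218 and 22224 bp downstream of the start of Sf3b2, and at Prpf8 it lay 195 and 189 bp after the start of Rilp. At Hnrnpk it lay 177 and 163 bp after the start of Rmi1, a gene of DNA repair, and 657 and 643 bp before that of Hnrnpk. Replicate 2 had a further summit 84 bp after the Hnrnpk start with a fold of 28.1. At Sf3a1 the summits were 25 and 8 bp from the Ccdc157 start and 36 and 53 bp from its own, and at Sf3b3 they were 90 and 72 bp from the Cog4 start and 113 and 131 bp from its own. Hnrnpa1 with Cbx5 was the sixth. This could not be judged for U2af2 with Epn1 or Hnrnpm with Marchf2, since U2af2 and Marchf2 have no start in the promoter table. The U2af2 summits lay 387 and 389 bp outside its span and 83 and 85 bp after the Epn1 start. At Hnrnpa2b1 the shared peak lay 473 and 477 bp after its start, 1244 and 1248 bp before that of Cbx3, and another with folds of 23.0 and 22.8 stood 1039 and 1031 bp outside the span end, on the Cbx3 side. Noncoding genes alone shared the peak at 6 more, namely Hnrnpa3, Pcbp2, Ptbp1, Srsf3, Srsf5 and Sf1.

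Other splicing genes, in 4 further lists of 86 genes in all, were occupied in 68 cases (79.1%), against 51.6% of all protein-coding genes. Their median folds of 15.7 and 14.9 were slightly below the 16.4 and 15.2 of all occupied protein-coding genes. All 15 further hnRNP-like genes were occupied, led by Raly, a close relative of Hnrnpc, at 26.5 and 31.5 and Pcbp3 at 23.6 and 25.4. Of 15 genes of SR kinases and SR-related proteins 13 were occupied, with Rnps1 at 22.3 and 28.8, at a peak shared with Eci1, and the SR kinase gene Clk2 at 26.4 and 22.7. Of 34 further core spliceosome genes 25 were occupied, at the lowest median folds of the 4 lists, 13.6 and 10.9. Snrpd3 led these at 26.8 and 22.8, at a peak shared with Gucd1, before the helicase gene Dhx15 at 23.0 and 26.2. Of 22 tissue-restricted regulators 15 were occupied, led by Qk, which encodes the RNA-binding protein Quaking, at 24.3 and 23.99 and Celf6 at 21.8 and 26.2. The muscleblind genes Mbnl1 and Mbnl2, regulators of splicing in muscle, were not occupied at a span end.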

How the data were processed

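Deaf1 ChIP-seq was analysed in 2 replicates of C2C12 cells from the deposited peak lists, 1 for each sample and not pooled. The submitters' processing notes name BWA, MACS2 and the build mm10. Which versions and settings these had, and which control entered peak calling, is not given in the sources. The fold (a ratio), the −log10 p and q and the score of each peak are the authors' deposited values. The score equalled 10 times −log10 p, rounded down, in 100% of peaks. Read depth is not known. Pileup and background were solved from fold and −log10 p under a Poisson model, with a largest misfit of 4.07e-05 in −log10 p. Exact Poisson intervals of the pileup, at 95%, cover counting error only and take the background as known.

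Gene spans came from RefSeq on GRCm38.p6, the assembly behind mm10, and starts, strand and sequence from a RefSeq promoter table of 17274 protein-coding genes. All 45 members matched a span and 43 a start. Where both ends were occupied, the end with the higher product of folds was used, and in each replicate the peak of highest fold within 1 kb. The calls and the pileup solution were checked on simulated data. Python 3.11.15 with NumPy 2.4.6, pandas 2.3.3, SciPy 1.17.1 and matplotlib 3.10.9 was used.

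The members and lists were chosen with earlier results of these data known. No test was made, since there is no second condition, and all shares are descriptions. Genes were named by rule: in each class the 4 occupied members with the highest product of folds and the 2 with the lowest, every member not occupied, with a shared peak or whose call changed under an alternative, and the 2 highest of each further list. Srsf5, Srsf6, Syncrip and the remaining members were named to account for every member, and Mbnl1 and Mbnl2 were chosen after their values were seen. Calls were recomputed with other windows, thresholds and single replicates.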

Additional observations from a re-analysis of the deposited data

How the results depend on the processing

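No paired analysis was possible because the inputs, which share replicate numbers with the ChIP samples, had no peak list analysed here. Across the alternatives the counts of occupied genes stayed within 1.5 times their main values, with 27 to 43 of the 45 members occupied. With replicate 1 alone 38 were called, Hnrnpc added, and with replicate 2 alone 37. A 500 bp window lost 10 members (Hnrnpa2b1, Hnrnpa3, Hnrnpab, Hnrnpk, Ptbp1, Srsf5, Srsf10, Tra2a, Sf1 and U2af1) and gave median folds of 13.8 and 14.8, against 16.2 and 14.8 at all protein-coding genes. Windows of 2 and 5 kb gained Hnrnph1, Hnrnpu, Hnrnpul1, Ptbp2, Srsf1 and Srsf2. A fold of at least 5 lost Prpf19 and Snrpa, and summits within 100 bp lost Hnrnpa3, Hnrnph3, Hnrnpm, Srsf10 and Sf3b1. The median inward distance of the summits, 234 and 209 bp, was 116 and 134 bp in the 500 bp window, 427 and 269 bp at 2 kb, 441 and 402 bp at 5 kb, and 161 and 160 bp from starts. In replicate 1 it was 268 bp with folds of at least 5 and 200.5 bp with summits within 100 bp. A window bounds the distances it can hold, and the cause of the other shifts was not tested. Peak lists of unequal length, unknown depth and the missing input limit how firmly a missing peak can be read.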
